A study of Drosophila melanogaster with 3 samples.

Results

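The genes of the Brahma remodelling complex and of the trithorax group were examined for binding of CG5245, a zinc finger protein, in Drosophila melanogaster embryos. The set held 9 genes among 13945 protein-coding genes in the Ensembl models. It comprised brm, osa, mor and Snr1, which encode subunits of the Brahma complex, and trx, ash1, ash2 and Utx, which encode histone-modifying proteins or their partners. The last member was kis, which encodes a chromodomain helicase. The genes were selected by symbol after binding at genes of these data had been examined, so their positions, ranks and signals in the peak lists are given as a description with no test.

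Binding had been measured by chromatin immunoprecipitation and sequencing in a single group of 3 biological replicates. The embryos, of mixed sex and 0 to 16 h old, came from 1 transgenic line stably expressing CG5245 with enhanced GFP at its C terminus. Whether untagged CG5245 was also made is not given in the labels. The description in the labels names an anti-GFP antibody, whereas the antibody field names CG5245. A shared control was used by the authors and was not analysed here. Whole embryos were used, so strong binding in few cells and weak binding in many cannot be told apart.

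Brahma is the ATPase of the fly SWI/SNF complex, which slides and evicts nucleosomes. The trithorax group was found through mutations that alter the keeping of homeotic gene expression, and its members act against the Polycomb group. Trithorax and Ash1 are histone methyltransferases, Ash2 is a shared subunit of methyltransferase complexes acting on lysine 4 of histone H3, and Utx removes methyl groups from lysine 27 of histone H3.

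The authors deposited lists of regions, each with a summit and a signal value, which is the authors' own score and is used here only to describe and rank regions within a list. The reproducible set held 3670 peaks with signals from 92.4 to 2002 and a median of 148, where rank 1 is the strongest. Candidate regions, most of them weaker, numbered 30000 for the pooled data, 30000 each for replicates 1 and 2 and 29608 for replicate 3. No list gives read counts, so the depth of each replicate is unknown. A gene was called occupied when a reproducible summit lay within 500 bp of one of its transcription start sites. Distances are negative upstream of a start site and positive downstream.

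The sequences below show the DNA at the strongest peak in or beside 6 of the genes, as the summit and 50 bp to either side on the plus strand of genome Release 6 (dm6). They are given because the same feature, a summit in A- and T-rich DNA, is described for all peaks further on. All 6 were richer in A and T than the windows 500 bp to either side. The Utx start site window is not printed and was poorer than those beside it, at 59.4% against 65.8%. Capitals mark runs of 6 or more A or T bases.
brm start site, chr3L:15982931-15983031: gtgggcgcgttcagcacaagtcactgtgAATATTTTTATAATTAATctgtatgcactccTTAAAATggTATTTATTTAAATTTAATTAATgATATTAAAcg
mor start site, chr3R:15973033-15973133: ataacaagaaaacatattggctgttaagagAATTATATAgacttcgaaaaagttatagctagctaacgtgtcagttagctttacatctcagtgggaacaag
osa intron, chr3R:17704364-17704464: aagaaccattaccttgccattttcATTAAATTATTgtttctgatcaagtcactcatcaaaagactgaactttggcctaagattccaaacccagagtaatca
trx intron, chr3R:14283858-14283958: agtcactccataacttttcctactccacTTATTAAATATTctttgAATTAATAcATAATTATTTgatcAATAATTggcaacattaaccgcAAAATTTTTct
kis intron, chr2L:223517-223617: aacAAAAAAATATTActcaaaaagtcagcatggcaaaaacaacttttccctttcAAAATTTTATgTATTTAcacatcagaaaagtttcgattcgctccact
beyond the ash1 end, chr3L:19590570-19590670: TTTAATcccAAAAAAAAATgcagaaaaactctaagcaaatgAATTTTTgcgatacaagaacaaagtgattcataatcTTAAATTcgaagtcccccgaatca
The brm window held 4 such runs, the longest of 22 bases, and the trx window held 5. The osa and mor windows held 1 run each. Both summits at start sites lie between the named gene and a gene on the other strand, and the osa, trx and kis windows lie in introns.

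CG5245 peaks lay at the start sites of 3 of the 9 genes, brm, mor and Utx. Across all protein-coding genes 2210 were occupied, or 15.8%. Among the Brahma subunits 2 of 4 were occupied, among the histone-modifying members 1 of 4, and kis was not. Only the brm peak was strong. Leaving out a replicate did not remake the reproducible set. It kept regions among the 3670 strongest of a remaining replicate that overlapped the 3670 strongest of the other. This rule called 11.8 to 12.5% of protein-coding genes occupied. By it, brm was the only member occupied without replicate 1 or replicate 3. Without replicate 2, brm, mor and Utx all were. This follows from the replicate 2 ranks of mor at 4434 and Utx at 4516, outside its 3670 strongest regions. In each replicate, the 3670 regions of highest signal, called top regions here, reached the start sites of 4 members in replicate 1, 1 in replicate 2 and 3 in replicate 3. That is 2.67 ± 1.53 members (SD, n = 3). The share of protein-coding genes was 15.7% ± 0.728 (SD, n = 3). This share is taken over far more genes, so the 2 spreads cannot be compared.

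**Figure D1:**
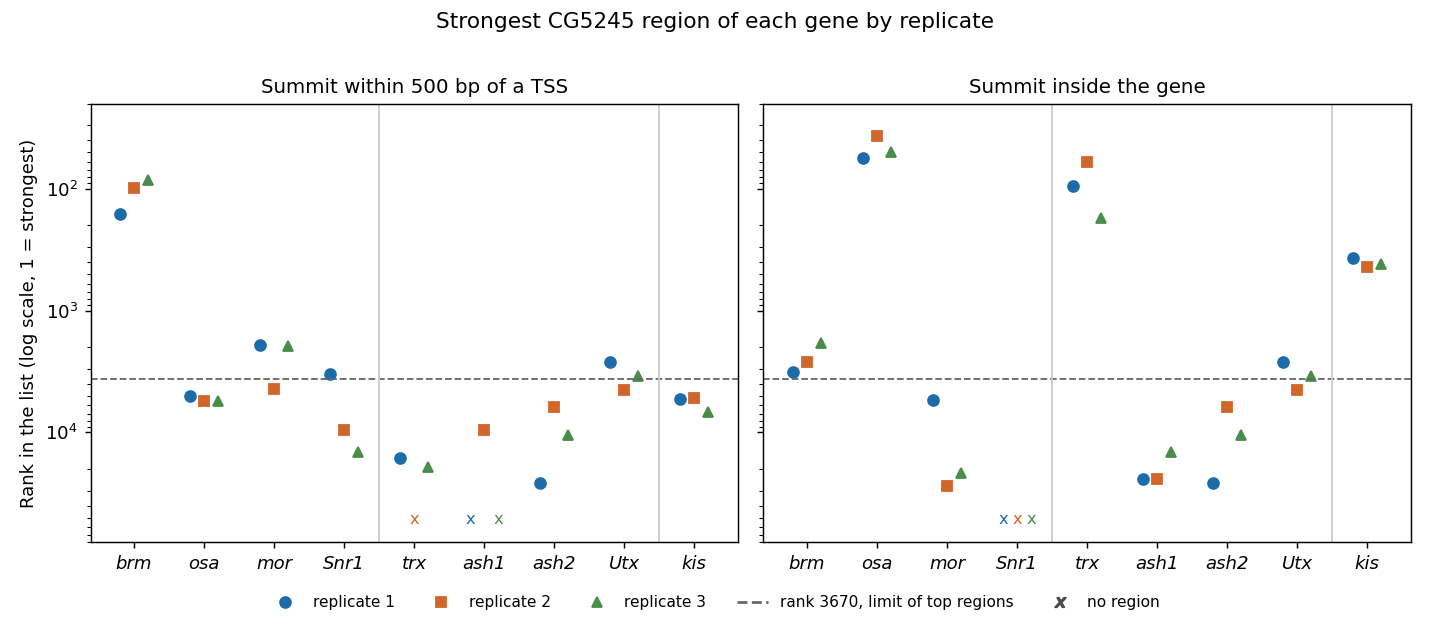
Rank of the strongest candidate region of each of the 9 genes in each of 3 replicates, within 500 bp of a start site on the left and inside the gene on the right, on a logarithmic axis with rank 1 the strongest, a dashed line at rank 3670 and a cross where a replicate lists no region. At start sites brm lies between ranks 84 and 160 in every replicate while mor and Utx cross the line in replicate 2, and inside the genes osa, trx and kis lie highest.

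The gene brm (FBgn0000212, 3L:15970082-15982869, minus strand) encodes the Brahma ATPase itself. Its start site peak, chr3L:15982827-15983184, had a signal of 533 and rank 112 of 3670. The summit lay 112 bp upstream, in the 266 bp that separate the brm start site from that of Arl1 on the other strand. The region ranked 160 in replicate 1, 99 in replicate 2 and 84 in replicate 3, with signals of 184, 181 and 169.6. All 3 replicates thus placed it among their strongest regions. Relative to the median signal of each replicate's list the brm region stood 12.1 ± 1.67 times higher (SD, n = 3). Its summit lay 173, 108 and 96 bp upstream in replicates 1, 2 and 3, a spread of 41.4 bp (SD, n = 3), and stayed between both start sites each time.

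The gene mor (FBgn0002783, 3R:15968134-15972913, minus strand) encodes Moira, a core scaffold subunit of the complex. Its peak, chr3R:15972885-15973280, had a signal of 129.6 and rank 2251, with the summit 170 bp upstream. Hel89B, which encodes an ATPase of the Mot1 family, starts 385 bp away on the other strand and shares the peak. In the replicates the region ranked 1917, 4434 and 1956, with signals of 60.2, 27.1 and 39.8. It was therefore among the top regions in 2 of 3 replicates and below them in replicate 2. Its summit stayed 183 to 202 bp upstream in the replicates.

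Snr1 (FBgn0011715, 3R:5470926-5472754, plus strand), which encodes the SNF5-related subunit, had no reproducible peak at its start site. A pooled candidate lay 34 bp upstream with a signal of 78.2 and rank 4719, between Snr1 and mRpL44, which starts 290 bp away on the other strand. Its rank spread widely over the replicates, with 3316 in replicate 1, 9628 in replicate 2 and 14576 in replicate 3. The signals were 43.0, 16.6 and 14.6. Replicate 1 alone placed the Snr1 region among its top regions.

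The gene osa (FBgn0261885, 3R:17687818-17718350, minus strand) encodes the ARID-domain subunit that marks the BAP form of the complex. At its start site only a candidate was seen, 264 bp upstream with a signal of 73.3 and rank 5165. The strongest region near the osa start site ranked 4992, 5548 and 5479 in the replicates, outside the top regions in all 3, with summits at -135, -345 and -110 bp. The strong osa peaks were inside the gene, as described below.

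Of the histone-modifying members, Utx (FBgn0260749, 2L:10272325-10278811, minus strand), the H3K27 demethylase, had the only start site peak. It lay at chr2L:10276809-10277204 with a signal of 100.04 and rank 3284, and its summit was 154 bp downstream of the innermost of 3 annotated start sites, in a 5′ UTR exon. The replicates ranked it 2628, 4516 and 3473 with signals of 49.8, 26.7 and 28.0. Like mor, Utx passed into the top regions in replicates 1 and 3 and not in replicate 2. Utx stood at 2.29 ± 0.523 times the list median (SD, n = 3) and mor at 2.77 ± 0.707 (SD, n = 3). Within replicates 1, 2 and 3 Utx was the lower each time, at 2.89, 2.05 and 1.92 against 3.49, 2.08 and 2.74.

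The other histone-modifying members had weak candidates or none at their start sites. At trx (FBgn0003862, 3R:14263358-14286903, minus strand) a pooled candidate of signal 33.4 lay 87 bp upstream at rank 17902, and replicate 2 listed none. At ash1 (FBgn0005386, 3L:19590773-19598755, minus strand) neither the pooled list nor replicates 1 and 3 held a region within 500 bp. Replicate 2 alone held 2, the stronger 42 bp upstream at rank 9561. The ash2 gene (FBgn0000139, 3R:24650125-24653376, plus strand) had a candidate of signal 27.6 at rank 24887, 265 bp downstream of a start site. Replicates 1 and 3 held this region at ranks 25801 and 10539, whereas the strongest region of replicate 2 was at another ash2 start site, 114 bp downstream of it, at rank 6145. None of the trx, ash1 and ash2 start site regions reached the top regions of any replicate.

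At kis (FBgn0266557, 2L:210735-250823, minus strand), whose chromodomain helicase acts in transcription elongation, both annotated start sites had a pooled candidate. The stronger was 58 bp downstream of the internal start site with a signal of 80.2 and rank 4527. It ranked 5306, 5251 and 6742 in the replicates, below the top regions each time. The weaker kis candidate lay 93 bp upstream of the other start site with a signal of 69.3.

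Counting candidates of any strength, 8 of the 9 genes had a pooled region within 500 bp of a start site, all but ash1, against 51.2% of protein-coding genes. Candidates at start sites were thus common at the members, and most of them were weak.

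The members of both classes were then compared by the rank of the strongest region at a start site. Each of the 4 Brahma genes can be set against each of the 4 histone-modifying genes, which gives 16 pairs. A gene with no region in a list was placed lowest. At start sites this was ash1 in the pooled list and replicates 1 and 3, and trx in replicate 2. In the bodies it was Snr1 in every list. The Brahma gene held the higher-ranked region in 14 pairs in the pooled list, and in 14, 12 and 13 pairs in replicates 1, 2 and 3. The pairs that went the other way in the pooled list were Utx against Snr1 and Utx against osa. The classes overlapped in every list because Utx ranked above at least 1 Brahma gene. Inside the gene bodies the order was mixed, with 9 of 16 pairs in the pooled list and 8, 7 and 7 in the replicates. With 4 genes a class, these counts describe the listed genes and were not tested. Beyond the members, a pooled candidate lay at a start site of 4 of 7 further Brahma subunits (57.1%). The same held for 10 of 12 genes of H3K4 methylation complexes (83.3%), against 51.2% of protein-coding genes.

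Reproducible summits lay inside 5 of the 9 genes, brm, osa, trx, Utx and kis, against 9.85% of protein-coding genes. The Utx summit is the start site peak already described, which lies inside the gene, so 4 genes held a body summit more than 500 bp from a start site. The other members, mor, Snr1, ash1 and ash2, had none. Gene length went with this count, since osa, trx and kis are the longest members at 30533, 23546 and 40089 bp. Among protein-coding genes within 1.5-fold of their lengths, a body summit was present in 40.2% for osa, 39.0% for trx and 42.3% for kis. The brm and Utx genes are shorter, and a body summit was present in 27.5% of 1136 genes of like length for brm and in 14.8% of 1913 for Utx.

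**Figure D2:**
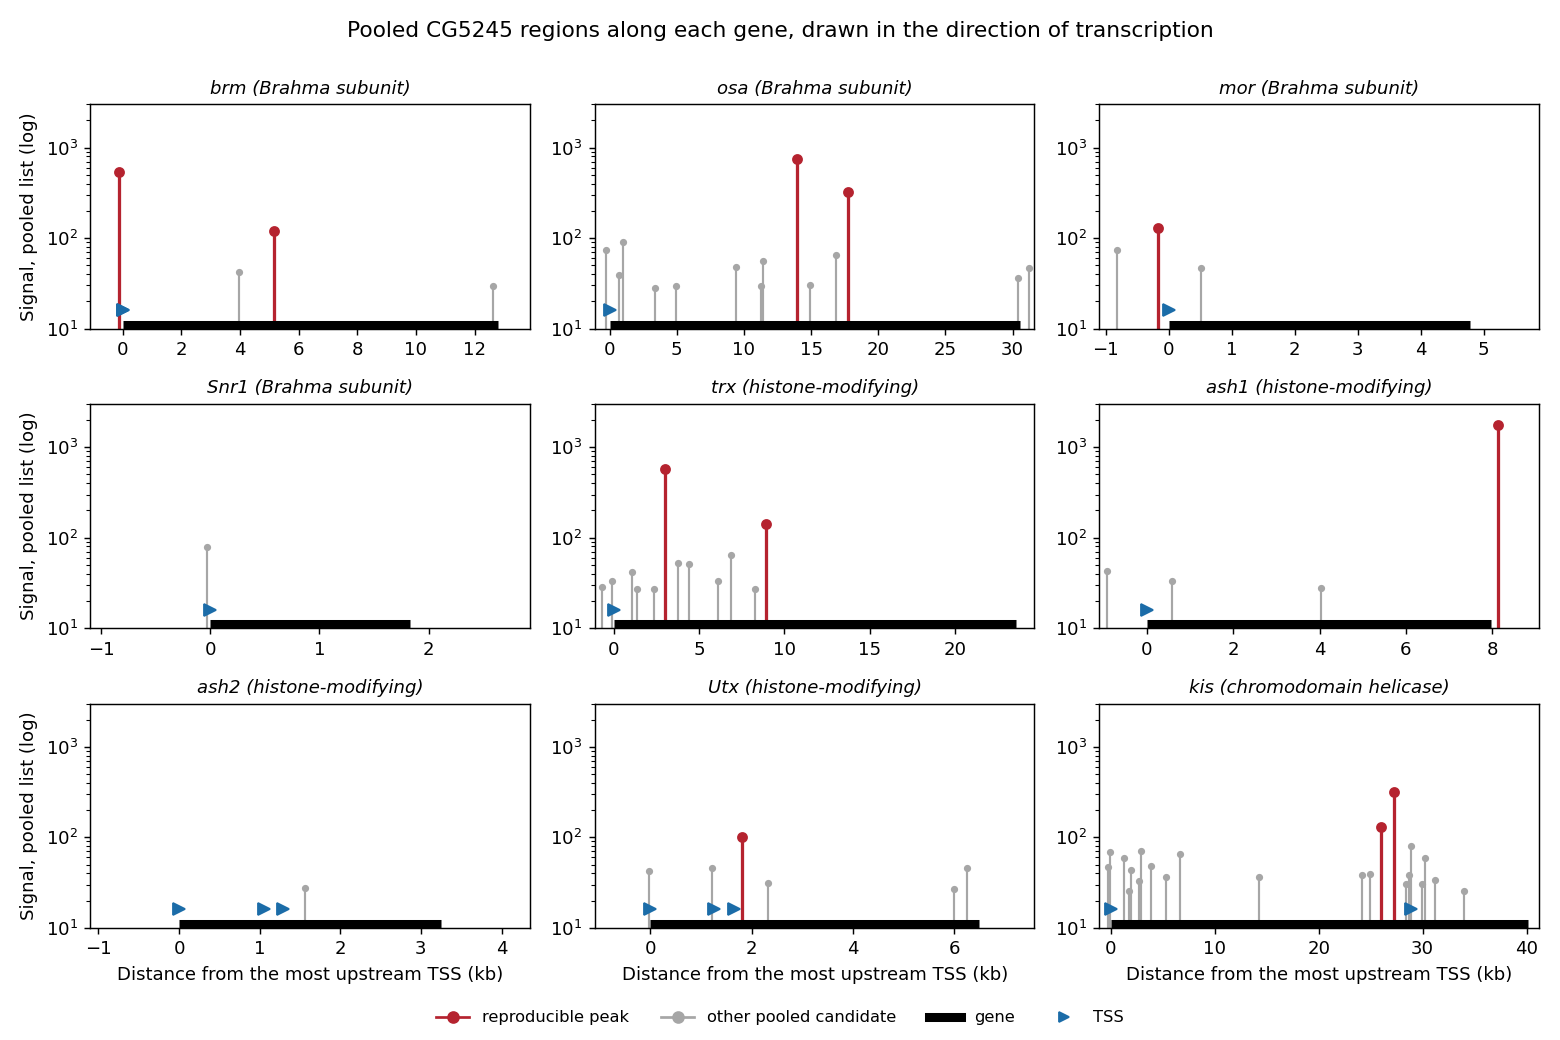
Candidate and reproducible summits along the 9 genes, each drawn in the direction of transcription as distance in kb from the most upstream start site, with the pooled signal of each region on a logarithmic axis. The osa, trx and kis genes carry 2 reproducible summits each inside the body, away from the start sites, and brm carries 1 strong summit at its start.

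The strongest peak inside any member was in osa. It lay in an intron at chr3R:17704249-17704565, 13936 bp downstream of the osa start site, with a signal of 746 and rank 43. The replicates ranked it 56, 37 and 50 with signals of 278, 259.8 and 209. The summit moved by no more than 11 bp between replicates. It also lies inside lncRNA:CR46035, a non-coding gene on the other strand that starts 719 bp from the summit. A further osa intron peak, chr3R:17700430-17700722, had a signal of 325 and rank 373, and its summit was 115 bp from the start site of lncRNA:CR46036. It ranked 585, 294 and 304 in the replicates. The osa peaks stood 16.8 ± 2.85 and 7.51 ± 1.58 times above the list median (SD, n = 3), so the stronger exceeded the weaker by more than the spread between replicates.

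The trx gene, which had at most a weak candidate at its start site, held its strongest peak in an intron at chr3R:14283737-14284022. This region was 2995 bp downstream of the start site, with a signal of 580.4 and rank 91. It ranked 94, 60 and 175 in the replicates, and signals were 229, 219.9 and 125. Replicate 3 was the lowest, and all 3 stayed among the top regions. A weaker trx intron peak at chr3R:14277807-14278202 had a signal of 142 and rank 1960. No other gene's start site was nearer to either peak than that of trx.

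In kis the stronger peak, chr2L:223463-223637, was intronic and lay 1605 bp upstream of the internal start site. It had a signal of 319 and rank 390, and the replicates ranked it 370, 438 and 412. These ranks were the closest to one another of the kis regions. The summit was 48 bp from the start site of lncRNA:CR44222, a non-coding gene on the other strand, and inside its exon. A weaker kis peak, chr2L:224651-225046, had a signal of 131 and rank 2224. Its replicate ranks were 1749, 3026 and 1960.

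Beyond its start site peak, brm held an intron peak at chr3L:15977514-15977909 with a signal of 121 and rank 2488, 5137 bp downstream. The start site of CG17029, a protein-coding gene on the other strand that also covers the summit, was 679 bp away. In the replicates it ranked 3172, 2658 and 1851, at 2.78 ± 0.194 times the list median (SD, n = 3). The brm start site peak, at 12.1 times, was well above that spread.

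**Figure D3:**
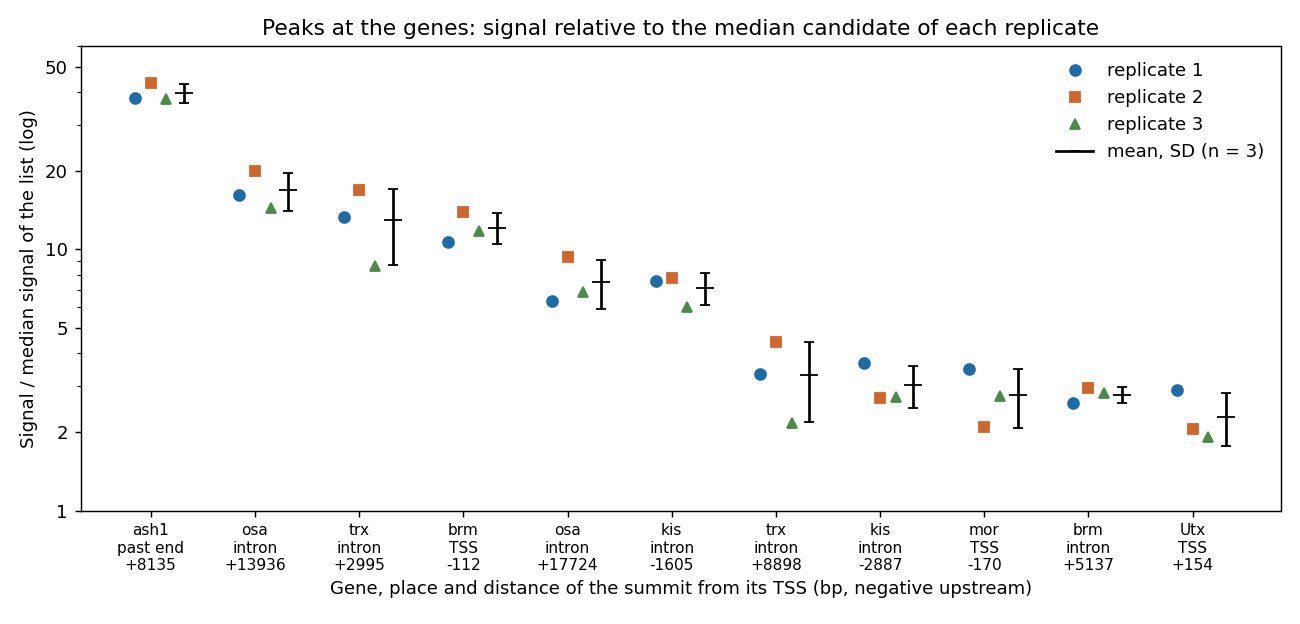
Signal of each reproducible peak in or beside the members, divided by the median signal of the same replicate's candidate list, for 3 replicates. Points are replicates and bars the mean ± SD on a logarithmic axis. The region beyond the end of ash1 is highest at 39.6, followed by the osa intron, trx intron and brm start site peaks.

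A very strong peak lay just beyond the 3′ end of ash1. At chr3L:19590428-19590814 it had a signal of 1759 and rank 2 of all 3670, and ranked 3, 3 and 2 in the replicates. Its summit was 153 bp past the end of ash1, 8135 bp from the ash1 start site and 96 bp from the start site of CG14100, so by the rule used here it belongs to CG14100 and not to ash1. The signals were 655, 565 and 545, or 39.6 ± 3.30 times the list median (SD, n = 3). It is the strongest region near any of the 9 genes, and the ash1 body itself held no reproducible summit.

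The ash2 gene stood far from binding. Its nearest reproducible summit was 77456 bp away, and 755 protein-coding genes, or 5.41%, were at least as far from one. Snr1 was 3804 bp from its nearest, and 69.0% of protein-coding genes were at least as far as that. For the remaining genes with no start site peak the distance was 13936 bp at osa, 1962 bp at trx, 8135 bp at ash1 and 1605 bp at kis.

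Candidate density was then counted along the genes. The bodies of the 9 genes held 54 pooled candidate summits in 131287 bp, or 4.11 per 10000 bp, against 2.19 over all protein-coding genes and 2.08 over those of 20000 bp or more. By gene the density was highest at Utx, with 7.71, followed by 4.99 at kis, 4.25 at trx and 3.93 at osa. It was 3.08 at ash2, 2.51 at ash1, 2.35 at brm and 2.09 at mor, which is below the value over all protein-coding genes, and Snr1 held none. The Utx value rests on 5 pooled candidates in 6487 bp, of which 1 was in the reproducible set. Its body held 2, 5 and 3 candidates in replicates 1, 2 and 3. The kis body held 20 pooled candidates and 19, 14 and 14 in replicates 1, 2 and 3. Reproducible summits were 0.609 per 10000 bp in the members, highest at Utx with 1.54, and 0.225 over all protein-coding genes. These densities rest on 8 reproducible summits in 5 genes.

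The values on either side of the thresholds were close. The members' weakest regions inside the reproducible set were those of mor at rank 2251, the brm intron at 2488 and Utx at 3284. Just outside were an osa intron region 990 bp from the start site at rank 3757 with a signal of 91.0, then kis at 4527 and Snr1 at 4719. Utx at 100.04 and the osa region at 91.0 therefore lay on either side of the threshold with similar signals. On distance, the farthest candidates still within 500 bp were at kis, 296 and 414 bp away, and the nearest beyond it were at mor at 510 bp and ash1 at 590 bp.

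Many of the genes sit head to head with a neighbour. A gene on the other strand started within 1000 bp upstream at brm, mor, Snr1, ash1 and ash2, or 55.6% of the 9, against 36.2% of protein-coding genes and 65.3% of the occupied ones. A summit between close start sites can make both genes occupied, so the 65.3% depends in part on the calling rule. The partners were Arl1, Hel89B, mRpL44, Taf6 at 333 bp and puf at 82 bp. The occupied members included 2 with such a partner, brm and mor, and 1 without, Utx. The other head-to-head members, Snr1, ash1 and ash2, were not occupied.

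Summits in the members lay in A- and T-rich DNA. Over the 10 reproducible peaks at the start sites and in the bodies, A and T made up 68.3% of the summit and the 50 bp to either side, with a range of 59.4 to 74.3%, and 51.9% of windows 500 bp to either side. Over all 3670 peaks the values were 64.4% and 56.3%. The summit was richer than its flanks at 8 of the 10, or 80.0%, and at 75.1% of all peaks, so the members followed the general pattern. The brm start site had the widest gap, 71.3% at the summit and 36.6% in the flanks. The exceptions were the weaker trx peak, at 65.3% against 69.3%, and Utx, at 59.4% against 65.8%. The Snr1 candidate outside the set had 55.4% at its summit and 55.0% beside it.

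**Figure D4:**
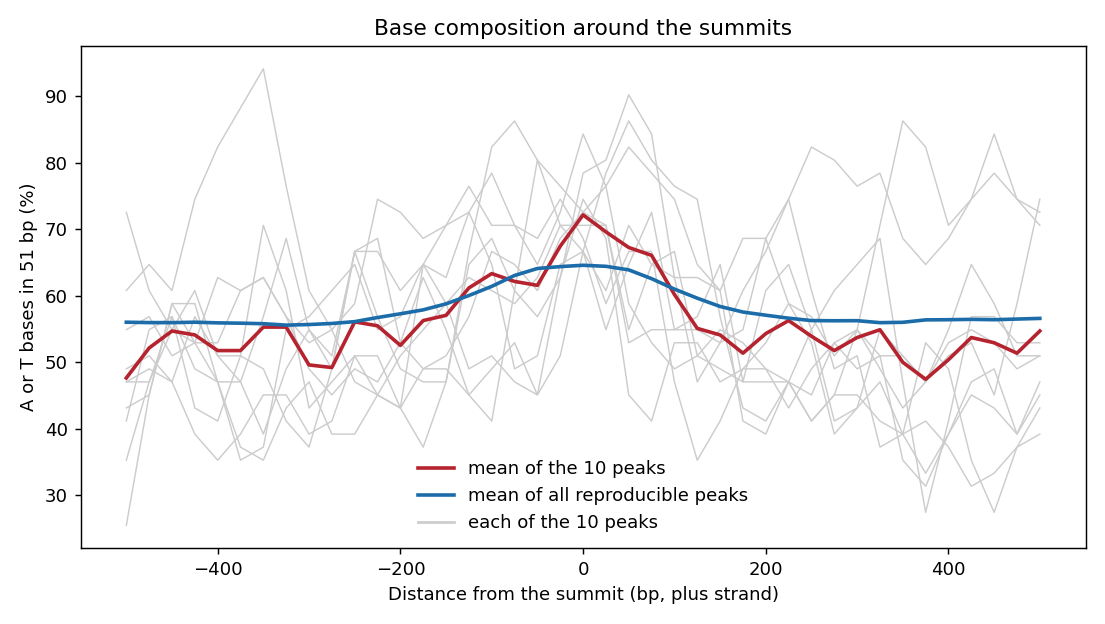
Share of A and T in windows of 51 bp by distance from the summit, for the members' reproducible peaks and their mean, and for all 3670 reproducible peaks. The members' mean is highest at the summit, at 72.2%.

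Runs of A and T account for the capitals in the sequences printed above. The members' 10 peaks held 3.20 runs of 6 or more bases on average, against 2.72 over all peaks and 1.71 over flanks. The longest run had a median of 12 bases in the members, 9 over all peaks and 7 in flanks. The sequence TATCGATA, to which the factor DREF binds, was in none of the 10 member windows and in 1.88% of all peaks, searched on both strands. GAGAG, part of the sequence bound by GAGA factor, was in 2, the weaker osa and trx peaks, against 10.2% of all peaks, 13.9% of flanks and 15.4% of windows just upstream of start sites. CGATA was in 1, the brm intron peak, and in 16.6% of all peaks. GATA, which is also contained in CGATA and TATCGATA, was in 5, and in 54.6% of all peaks. CAGCTG and CACACACA were in none of the 10, and in 4.06% and 1.34% of all peaks. No motif was tested over the members, and a match of letters describes the window alone.

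Other genes of the same pathways were counted from lists. Among 7 further Brahma subunits 2 were occupied (28.6%), against 15.8% of protein-coding genes. These were Act5C, which encodes actin, with a signal of 140.5, and Bap60 with a signal of 112. In both, another gene's start site was nearer to the summit, that of lncRNA:CR45668 for Act5C and that of CG12096 for Bap60. Neither therefore had a peak of its own by the nearest start site.

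Of 12 genes of H3K4 methylation complexes 3 were occupied (25.0%), against 15.8% of protein-coding genes. Rbbp5, a shared core subunit, had a signal of 152 with eRF1 nearer to the summit. Mnn1, the fly menin, had 107, and Lpt, a partner of the Trr methyltransferase, had 93.3. They ranked 1751, 2960 and 3621, all well below the brm peak. Top regions reached the start site of Rbbp5 in 3 replicates, of Mnn1 in 2 and of Lpt in 1.

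Of 12 other trithorax group genes 4 were occupied (33.3%), against 15.8% of protein-coding genes. These were Trl with a signal of 223, skd with 131, fs(1)h with 106 and tara with 95.0. Top regions reached the start site of Trl in 3 replicates, of skd and fs(1)h in 2 each and of tara in 1. Reproducible summits lay in the bodies of 5 of the 12 genes, most in tara with 9, Trl, which encodes GAGA factor, with 5 and tna with 4. These counts were not set beside those of genes of like length. The peaks at skd and fs(1)h lay nearer to Pdss2 and mys. Of 9 other remodelling ATPases 3 were occupied (33.3%), against the same 15.8%. These were Ino80 with 338 at rank 338, Chd1 with 209 at rank 965, where the start site of Bem46 was nearer to the summit, and Hel89B through the peak it shares with mor. None of these occupied start sites exceeded the brm peak at 533.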

How the data were processed

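The authors called candidate regions in each replicate and in the pool, against a control, and kept a reproducible set by the irreproducible discovery rate, per the deposited text files. The deposited signal of a region is the peak caller's own score. The deposited q values are −log10 values, 3.88 for every reproducible peak. Which aligner and caller were run is not given in the sources used here. Fragments were 200 to 800 bp, per the labels. The dm6 lists were used and the dm3 lists were not.

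Summits were placed on Ensembl release 115 gene models of genome Release 6, limited to 6 chromosome arms (18164 genes, 13945 of them protein-coding), with Python 3.11.15, numpy 2.4.6, pandas 2.3.3 and matplotlib 3.10.9. The placement was checked on planted positions. Regions were ranked by signal within each list. Gene bodies were compared with genes within 1.5-fold of their length. Motifs were searched on both strands. For the replicate comparison, n = 3 and SDs describe the spread between replicates. No test was run, because there is 1 group and the members and lists were chosen with earlier results of these data known.

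All 9 members were named. From each wider list up to 6 occupied genes of highest signal were named, with any gene whose start site was nearer to the peak, and the 3 protein-coding genes whose replicate ranks were most like those of the brm peak. The tna gene and the head-to-head neighbours were named after its values were seen. The alternatives were other windows around start sites, the nearest start site alone, the upper 50% of peaks, stricter overlap with the replicates and leaving out each replicate. For the last, top regions of a remaining replicate were kept where top regions of the other overlapped them. The reproducible set was not remade. RefSeq gene models were added after seeing the data.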

Additional observations from a re-analysis of the deposited data

How the results depend on the processing

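Members occupied at a start site numbered 3. They fell to 1, brm, with the upper 50% of peaks by signal, when a peak had to overlap top regions of all 3 replicates and when that overlap had to reach 50%. Under these settings the Brahma subunits fell from 2 to 1 and the histone-modifying members from 1 to 0. Leaving out each replicate gave 1 to 3 members, 1 to 2 Brahma subunits and 0 to 1 histone-modifying members. The occupied share of protein-coding genes was 15.8%. It was 12.5% with a window of 250 bp, 18.5% with 1000 bp, 11.5% with the nearest start site only, 8.60% with the upper 50% of peaks, 10.7% with overlap of top regions in all 3 replicates and 10.1% with overlap of 50%. Leaving out each replicate gave 11.8 to 12.5%. Members with a body summit fell from 5 to 3 with the upper 50% of peaks, namely kis, osa and trx. They were 4, without Utx, with either overlap setting and without replicate 1 or replicate 3. Members with a pooled candidate at a start site numbered 8, against 6 with a window of 250 bp and 9 with 1000 bp. The pooled list was not remade without a replicate. Instead, 7 to 8 members had a candidate in the separate lists of both remaining replicates when each replicate was left out. RefSeq gene models gave 3 occupied members and 15.8% again.

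The settings that need several replicates also keep fewer peaks, so part of each drop comes from their construction. Depth is unknown, and a gene with no peak was not detectable as bound in these lists. No pairing of samples between groups was possible because the data hold 1 group.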

Other observations

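Among 520 start site peaks of protein-coding genes within the 1000 strongest, those with replicate ranks nearest to brm were moody, CG1635 and CG13018. Their Euclidean distances from brm in log10 rank over 3 replicates were 0.084, 0.098 and 0.131. The CG1635 peak ranked 136, 91 and 96 in replicates 1, 2 and 3, and the CG13018 peak 143, 117 and 105. The pooled signals of moody, CG1635 and CG13018 were 519, 543 and 518. That these lie near the 533 of brm follows largely from choosing the genes by rank.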
